A study of Mus musculus with 2 samples.

Results

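The annexins are the 8 genes Anxa1, Anxa2, Anxa3, Anxa4, Anxa5, Anxa6, Anxa7 and Anxa11, chosen by symbol among the 24421 gene symbols of the deposited tables, and all 8 were present. RNA was measured by bulk RNA-seq in granulocyte-monocyte progenitors (GMPs), the bone marrow precursors of granulocytes and monocytes, purified from female mice. One library came from GMPs of non-tumor-bearing mice (NTB-GMP), and the other from GMPs of mice with orthotopic implants of 4T1 (4T1-GMP), a mouse mammary carcinoma cell line. Mice of both groups had an F1 background carrying H-2b and H-2d and were 8 to 12 weeks old, and whether animals were pooled is not given in the sources used here. With 1 library per group there was no replicate error and no test of the conditions, so each interval below covers counting error only and compares these libraries.

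Annexins are cytosolic proteins that bind phospholipid membranes when calcium rises, through a conserved core of repeats. Their N-terminal ends differ, and these ends carry the binding sites for partners such as S100 proteins. In granulocytes, annexins are known for roles in granule fusion, membrane repair and the restraint of inflammation.

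The GMP identity of both libraries was checked against 9 marker genes, of which 6 were higher and 3 lower in 4T1-GMP. Mpo, which encodes myeloperoxidase, had 5160 and 5620 RPKM in NTB-GMP and 4T1-GMP, respectively, where RPKM are reads scaled by gene length and by library size. Elane, encoding neutrophil elastase, had 1850 and 2940 RPKM, and Ms4a3 had 479 and 1220 RPKM. The 3 that were lower encode surface proteins of the progenitors, namely Kit (78.5 and 49.1 RPKM), Cd34 (154 and 59.4 RPKM) and Fcgr3 (53.1 and 28.6 RPKM). Fcgr2b, which also encodes a surface protein, was higher (47.3 and 64.6 RPKM). Cd34 was past 2-fold lower, while Ms4a3, Prtn3 (1400 and 3310 RPKM) and Ctsg (1390 and 3000 RPKM) were past 2-fold higher. Ly6a, which encodes the stem cell antigen Sca-1, was listed at 0 in NTB-GMP and at 0.266 RPKM (at least 4 reads) in 4T1-GMP. On these reads the counting interval of its log2 ratio included 0. The RPKM were divided by library sizes of 10180365.24 (NTB-GMP) and 30016262.80 (4T1-GMP), which were not whole numbers and so are not plain read totals. Whole reads could be recovered from the RPKM and were 2.78 times as many in 4T1-GMP, and the annexins had between 199 and 1790 reads in NTB-GMP and between 378 and 9453 reads in 4T1-GMP.

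The RPKM scale sets annexin levels side by side per length. In NTB-GMP, Anxa3 (110 RPKM) and Anxa1 (101 RPKM) stood far above the other members, which ran from 32.2 RPKM for Anxa6 down to 9.76 RPKM for Anxa4. The 95% Poisson intervals of Anxa3 and Anxa1 overlapped in NTB-GMP, as did those of the neighbors Anxa6 and Anxa2, and of Anxa2 and Anxa5. In 4T1-GMP the order was Anxa3, Anxa1, Anxa2, Anxa7, Anxa5, Anxa11, Anxa6 and Anxa4. There Anxa3 and Anxa1 were apart, whereas Anxa7 and Anxa5 overlapped, as did Anxa5 and Anxa11. Anxa6 moved from the third place in NTB-GMP to the seventh in 4T1-GMP, and Anxa7 from the seventh to the fourth.

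**Figure D1:**
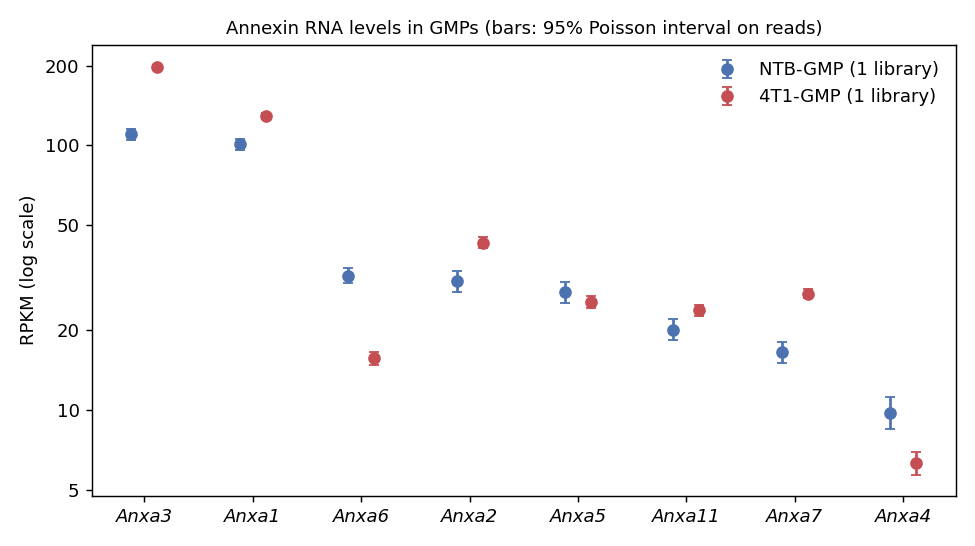
RPKM (log scale) of the 8 annexins in the NTB-GMP library (blue) and the 4T1-GMP library (red), ordered by NTB-GMP level, with 95% Poisson intervals on the recovered reads. Anxa3 and Anxa1 lie at or above 101 RPKM in both libraries, and Anxa6 has the lowest ratio of 4T1-GMP to NTB-GMP, with 32.2 RPKM in NTB-GMP and 15.7 in 4T1-GMP.

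In 4T1-GMP, 5 of the annexins were higher and 3 were lower. Their log2 ratios, taken on RPKM + 0.1 with NTB-GMP as the denominator, had a median of 0.30 and ranged from -1.03 to 0.84. The background was the 10378 expressed genes, those whose RPKM averaged 1 or more over both libraries, which included all 8 annexins. These expressed genes had a median log2 ratio of 0.05, and the share higher in 4T1-GMP was 54.7%, compared with 5 of the 8 annexins. That share depended on the scaling, at 50.5% after quantile normalization and 39.2% with library sizes that omit Rn45s. The annexins stayed at 5 of 8 under both. Omitting Rn45s treats the library sizes as read totals, which they were not, so its values show only what such a shift would do. None of the annexins was at least 2-fold higher, a level that 3.25% of expressed genes reached. Anxa6 alone was at least 2-fold lower, as were 4.92% of expressed genes. In either direction 1 of 8 annexins and 8.17% of expressed genes were past 2-fold. Of the expressed genes past 2-fold, 39.7% were higher in 4T1-GMP, or 27.1% with library sizes that omit Rn45s. The counting interval lay above 0 for 5 annexins, below 0 for 2 and included 0 for Anxa5. The matching shares of all expressed genes were not computed, so these counts do not set annexins apart. With the median of expressed genes set to 0 (a shift of -0.05) the interval of Anxa5 lay below 0, and with library sizes that omit Rn45s (a shift of -0.16) that of Anxa5 lay below 0 while that of Anxa11 included it.

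**Figure D2:**
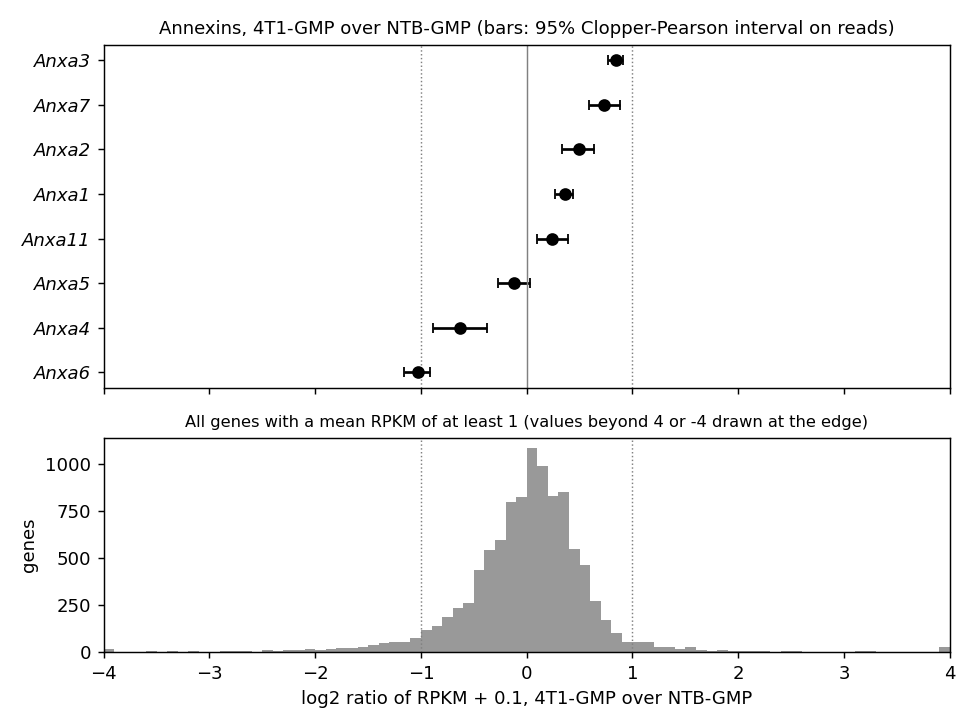
Top, log2 ratio of RPKM + 0.1 (4T1-GMP over NTB-GMP) of each annexin with its 95% Clopper-Pearson interval on reads; bottom, the number of genes at each log2 ratio among the 10378 expressed genes. Dotted lines mark 2-fold, values beyond 4 or -4 are drawn at the edge, and Anxa6 at -1.03 is the only annexin past 2-fold.

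Anxa3 and Anxa7 had the highest ratios. Anxa3 (chr5:96793339-96845966 on the plus strand of GRCm38, with up to 13 exons in the GENCODE annotation) encodes an annexin abundant in granulocytes, where it was described as a factor that aggregates granules. Its reads numbered 1790 in NTB-GMP and 9453 in 4T1-GMP, which gave 110 and 197 RPKM. Anxa3 was thus 1.79-fold higher in 4T1-GMP (interval 1.70 to 1.88), a log2 ratio of 0.84 that lay above those of 95.6% of expressed genes. By RPKM it ranked 457th of all symbols in NTB-GMP and 270th in 4T1-GMP. Anxa7 (chr14:20455260-20480133, minus strand), which encodes synexin, a protein that promotes the fusion of membranes and secretory granules, had 499 reads in NTB-GMP and 2446 in 4T1-GMP, or 16.5 and 27.5 RPKM. Its log2 ratio was 0.73 (interval 0.59 to 0.88), above those of 94.0% of expressed genes. Both Anxa3 and Anxa7 therefore sat near the upper tail of the expressed genes, without reaching 2-fold. The ratio of Anxa3 to Anxa7 within a library was 6.66 in NTB-GMP and 7.18 in 4T1-GMP, a log2 change of 0.11 whose interval (-0.05 to 0.27) included 0.

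The S100-binding annexins Anxa1 and Anxa2 were higher in 4T1-GMP by smaller amounts. Anxa1 (chr19:20373428-20390944, minus strand) encodes a glucocorticoid-regulated protein that is released by myeloid cells and limits neutrophil recruitment through formyl peptide receptors. Anxa1 stood at 101 RPKM in NTB-GMP, from 1434 reads, and at 129 RPKM in 4T1-GMP, from 5412 reads. The log2 ratio of Anxa1 was 0.36 (interval 0.27 to 0.44), which became 0.11 after quantile normalization of the libraries and 0.19 with library sizes that omit Rn45s. Anxa2 (chr9:69453620-69491795, plus strand), which encodes a membrane and actin scaffold that pairs with S100A10 and binds plasminogen, had 30.6 RPKM (428 reads) and 42.9 RPKM (1770 reads). Its log2 ratio was 0.49 (interval 0.33 to 0.64). The ratio of Anxa1 to Anxa2 was 3.30 in NTB-GMP and 3.01 in 4T1-GMP, and the interval of the log2 change (-0.31 to 0.04) included 0. A difference in their ratio was therefore not detectable at this depth.

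Short stretches before the RefSeq start sites of Anxa1, Anxa2 and Anxa11 are shown because Anxa1 and Anxa2 are the members whose promoter held the TATA box letters, while Anxa11 shows the GC box letters found in other members. The table of RefSeq promoters (GRCm38.p6) matched 6 of the 8 annexins with 8 windows, and Anxa3 and Anxa6 had no entry. Both strands of the 250 bases before each start were searched. The letters TATAAA were found in the windows of Anxa1 and Anxa2 and in 12.4% of all 32851 windows. The letters GGGCGG, the core of a GC box, were found for Anxa2, Anxa7 and Anxa11 and in 32.7% of all windows. Each stretch is written 5′ to 3′ on the strand of its gene, with TATAAA, or CCGCCC as the reverse complement of GGGCGG, in capitals. Other letters are in lower case, among them a GGGCGG just before the TATAAA of Anxa2.
Anxa1: cagttcatatccTATAAAatcaggagtcca
Anxa2: aggatggggcgggTATAAAagccccaccca
Anxa11: ccatctcgtgcggctCCGCCCcggggcgac
The Anxa1 stretch lies at chr19:20390686-20390715 on the minus strand, and its TATAAA begins 32 bases before the start. The Anxa2 stretch lies at chr9:69453653-69453682 on the plus strand, with TATAAA beginning 17 bases before the start. Both stretches lie inside the gene bounds of GENCODE, whose outermost transcripts start further upstream. The Anxa11 stretch is chr14:25842125-25842154 on the plus strand, and the 250 bases held 3 such matches. In GC content, the windows of Anxa2 (62.4%), Anxa5 (58.8%) and Anxa11 (58.0%) lay above the median of all windows (52.4%), and that of Anxa1 (46.0%) lay below it. Anxa4 (42.0% and 64.8%) and Anxa7 (42.4% and 62.0%) each had 1 window on either side. TTGCNNAA, letters recognized by C/EBP factors, were found in the window of Anxa1, in 1 of the 2 windows of Anxa4 and in 9.56% of all windows. GAGGAAGT, letters recognized by PU.1, and CCAAT occurred in none of the annexin windows, and in 2.44% and 33.8% of all windows, respectively. These matches are letters in a window, and no binding was measured.

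Anxa11 and Anxa5 had ratios nearer to 1 than the other members on the deposited scale, while Anxa1 was nearer to 1 than Anxa5 after quantile normalization or with library sizes that omit Rn45s. Anxa11 (chr14:25842156-25886804, plus strand) encodes an annexin with a long N-terminal end that tethers RNA granules to lysosomes and binds the calcium sensor ALG-2. For Anxa11 there were 491 and 1715 reads, giving 20.1 RPKM in NTB-GMP and 23.9 in 4T1-GMP. The log2 ratio of Anxa11 was 0.24 (interval 0.10 to 0.39), or 0.08 (interval -0.06 to 0.23) with library sizes that omit Rn45s. Anxa5 (chr3:36448923-36475894, minus strand) encodes the phosphatidylserine-binding protein used to stain apoptotic cells. It had 27.8 RPKM (488 reads) and 25.6 RPKM (1323 reads), a log2 ratio of -0.12 (interval -0.27 to 0.03). Whether the interval of Anxa5 included 0 depended on the scaling, as the ratio was -0.17 (interval -0.32 to -0.02) with the median of expressed genes set to 0 and -0.28 (interval -0.44 to -0.13) with library sizes that omit Rn45s. Relative to each other these members were closer in 4T1-GMP, where Anxa5 stood at 1.07 times Anxa11, than in NTB-GMP, where it stood at 1.38 times.

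Anxa6 and Anxa4 were lower in 4T1-GMP. Anxa6 (chr11:54979108-55033445, minus strand) encodes the annexin with a duplicated core, which acts at endosomes and in cholesterol transport, and its annotation has up to 26 exons against 13 for Anxa3. From 872 reads in NTB-GMP and 1254 in 4T1-GMP, its levels were 32.2 and 15.7 RPKM. Anxa6 was therefore at 0.488 of its NTB-GMP level (interval 0.447 to 0.532), a log2 ratio of -1.03, and 95.4% of expressed genes had a higher ratio. Its place past 2-fold depended on the pseudocount, since a pseudocount of 1 gave -0.99, and the interval of the log2 ratio ran from -1.16 to -0.91. Anxa4 (chr6:86736840-86793584, minus strand), which encodes an annexin that forms lattices on membranes and is best known from epithelia, was the least abundant member in both libraries. With 199 reads in NTB-GMP and 378 in 4T1-GMP, it had 9.76 and 6.29 RPKM, and the interval of its log2 ratio (-0.63) was -0.89 to -0.38.

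Ratios between members within a library do not depend on the library size. The annexins summed to 348 RPKM in NTB-GMP and to 468 in 4T1-GMP, and Anxa3 with Anxa1 made up 60.6% and 69.7% of these sums. The share of Anxa3 was 31.6% in NTB-GMP and 42.1% in 4T1-GMP, while that of Anxa1 was 29.0% and 27.6%. Anxa6 took 9.25% of the summed RPKM in NTB-GMP and 3.35% in 4T1-GMP, and Anxa4 took 2.80% and 1.34%. The widest shift in any pair was that of Anxa3 over Anxa6, from 3.42 to 12.6, a log2 change of 1.88 (interval 1.73 to 2.02). For Anxa7 over Anxa6 the ratio went from 0.514 to 1.75, so their order differed between the libraries (log2 change 1.77, interval 1.58 to 1.96). Of the 28 pairs of members, the counting interval of the change left out 0 in 25 and included it in 3, which were Anxa1 with Anxa2, Anxa1 with Anxa11, and Anxa3 with Anxa7. The pairs share members, and no such count was made for pairs of other expressed genes. The count therefore does not set annexins apart from other genes.

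**Figure D3:**
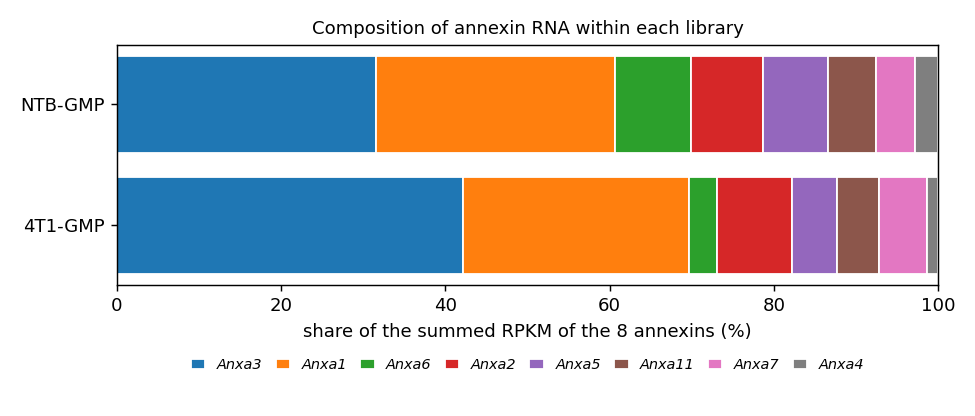
Share (%) of the summed RPKM of the 8 annexins taken by each member in NTB-GMP (top) and 4T1-GMP (bottom), 1 library each. Anxa3 widens from 31.6% to 42.1%, and Anxa6 narrows from 9.25% to 3.35%.

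The annexin symbols outside the 8 members were low or not detected. Anxa8, Anxa10 and Anxa13 were listed at 0 in both libraries, and a count of 0 allows up to 3 reads. Anxa9 had 154 reads in NTB-GMP and 301 in 4T1-GMP, or 7.65 and 5.07 RPKM, with a log2 ratio of -0.58 (interval -0.88 to -0.30). Exons of Anxa9 overlap those of Mindy1 and 6330562C20Rik, and exons of Anxa2, Anxa3, Anxa4 and Anxa11 overlap those of Gm16144, Gm42603, Gm44036 and Anxa11os, respectively. Whether the libraries kept strand is not given in the sources used here, so reads from overlapping genes cannot be told apart from annexin reads.

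Known partners and receptors of annexins, listed with some related genes, spanned a wider range of ratios than the annexins themselves. Among the genes tied to annexins less directly were Nr3c1, Tsc22d3 and Pla2g4a (log2 ratios of 0.01, -0.18 and 0.39). The 13 listed genes, all expressed by the above measure, had a median log2 ratio of 0.29. Of them, 3 were at least 2-fold higher in 4T1-GMP and 2 were at least 2-fold lower. Over all expressed genes these shares were 3.25% and 4.92%. Fpr1 and Fpr2 were below 1 RPKM in NTB-GMP and counted as expressed through 4T1-GMP, where they were higher. S100a6, whose product binds several annexins, had 11 reads in NTB-GMP and 519 in 4T1-GMP, or 1.5 and 24.0 RPKM, with a log2 ratio of 3.91 (interval 3.15 to 5.01). Fpr2, the formyl peptide receptor through which annexin A1 acts, had 0.379 RPKM (5 reads) and 6.48 RPKM (252 reads), with a log2 ratio of 3.78 (interval 2.85 to 5.73). Fpr1 had 0.297 RPKM (4 reads) and 3.35 RPKM (133 reads), with a log2 ratio of 3.12 (interval 2.11 to 5.39). All 3 therefore rested on 11 or fewer recovered reads in NTB-GMP and had wide intervals.

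The S100 partners of Anxa2 and Anxa1 differed from each other in direction. S100a10, encoding the partner of annexin A2, had 164 reads in NTB-GMP and 221 in 4T1-GMP, or 49.6 and 22.7 RPKM. Its log2 ratio was -1.13 (interval -1.43 to -0.83), while Anxa2 itself was higher in 4T1-GMP. S100a11, encoding a partner of annexin A1, had 170 and 208 RPKM, a log2 ratio of 0.29 (interval 0.10 to 0.48). Recovered reads of genes outside the annexins can be minima, and intervals from minima are wider than those from the full reads. Ahnak, which encodes a giant scaffold protein bound by the annexin A2 complex, had 6.30 RPKM (at least 603 reads) and 1.29 RPKM (at least 365 reads). Its log2 ratio was -2.20. Both S100a10 and Ahnak were thus lower in 4T1-GMP although Anxa2 was higher. The other genes of the partner and receptor list were within 2-fold, among them Sri and Pdcd6, which encode calcium-binding partners of annexins A7 and A11.

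Membrane repair genes act with annexins at wounded membranes. Of 15 such genes, 9 were expressed, with a median log2 ratio of 0.12, and 1 of the 9 was past 2-fold, near the 8.17% of all expressed genes. Capn2, which encodes the catalytic subunit of a calpain protease, was lower in 4T1-GMP, with 4.78 and 2.17 RPKM (log2 ratio -1.11, interval -1.45 to -0.83). Of 20 genes for the exposure, synthesis and recognition of phosphatidylserine, the lipid bound by annexin A5, 12 were expressed, with a median log2 ratio of -0.02. Among them 3 were at least 2-fold higher in 4T1-GMP and 1 was at least 2-fold lower, against 3.25% and 4.92% of all expressed genes. Pros1, encoding the bridging molecule protein S, had 0.330 RPKM (11 reads) and 2.18 RPKM (214 reads), a log2 ratio of 2.41, and it counted as expressed only through 4T1-GMP. Plscr1, encoding a phospholipid scramblase, had 6.51 and 18.6 RPKM (log2 ratio 1.5), and Atp11a, encoding a phospholipid flippase, had 9.73 and 22.4 RPKM (log2 ratio 1.19). Mfge8, whose product bridges phosphatidylserine to phagocytes, had 7.48 and 3.04 RPKM (log2 ratio -1.27).

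**Figure D4:**
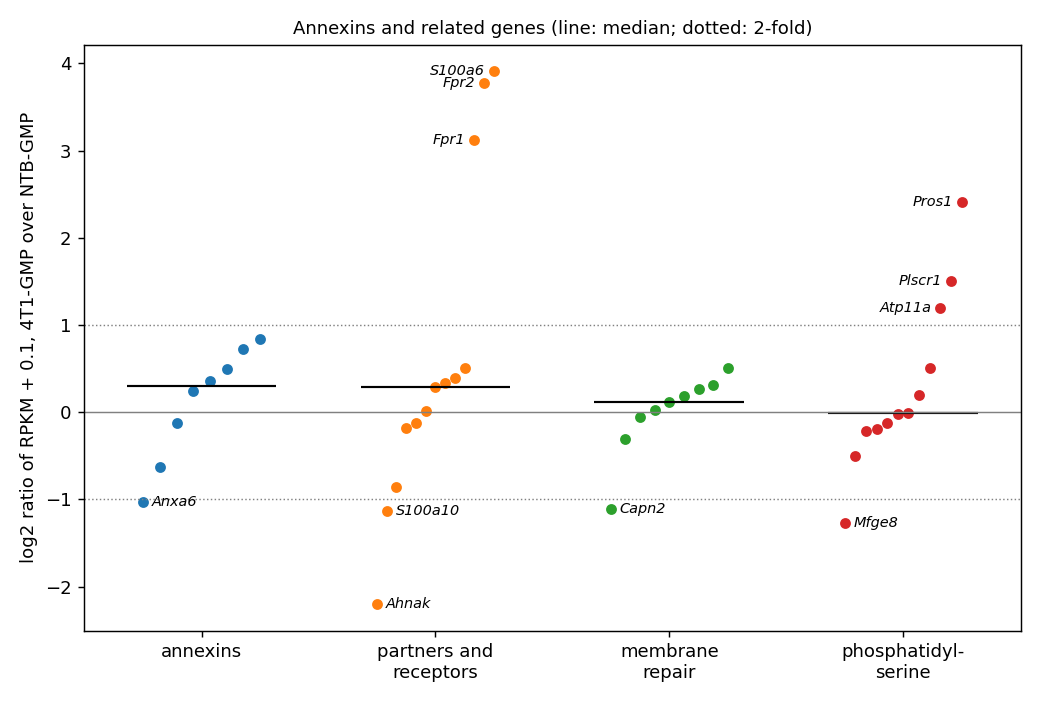
Log2 ratio of RPKM + 0.1 (4T1-GMP over NTB-GMP) for the annexins and for the expressed genes of 3 related lists, 1 point per gene, with the median of each list as a line and dotted lines at 2-fold. Annexins span -1.03 to 0.84, whereas partner and receptor genes span -2.20 to 3.91.

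Markers of other cell types differed between the libraries beside the annexins. In bulk RNA, fewer cells of a type and less RNA per cell cannot be told apart. All 10 neutrophil genes were higher in 4T1-GMP, where their RPKM summed to 497 against 122 in NTB-GMP, and none was at 0. Of them, Mmp8, Mmp9 and Ly6g were below 1 RPKM in NTB-GMP and counted as expressed only through 4T1-GMP. Over all expressed genes, 54.7% were higher in 4T1-GMP. All 8 eosinophil, basophil and mast cell genes were lower, with sums of 1820 RPKM (NTB-GMP) and 650 RPKM (4T1-GMP). Of 10 monocyte and dendritic genes, the 7 expressed ones were all lower, with sums of 121 and 29.1 RPKM and Batf3 listed at 0 in 4T1-GMP. The erythroid and megakaryocyte genes summed to 21.7 and 6.10 RPKM, with 3 of 7 expressed, all lower, and with Hbb-bt listed at 0 in both libraries. Stem and early progenitor genes summed to 32.6 and 18.4 RPKM, with 3 of 8 expressed, 1 of them higher in 4T1-GMP, and Ly6a listed at 0 in NTB-GMP. Macrophage genes summed to 19.6 and 19.7 RPKM, nearly all of it from Vcam1 (16.7 and 19.0 RPKM), and C1qb and C1qc were listed at 0 in 4T1-GMP. None of the 7 lymphoid genes was expressed by this measure, and they summed to 0.740 and 0.246 RPKM with Cd3g listed at 0 in both libraries. The mammary epithelial genes Epcam, Krt19 and Krt14 were listed at 0 in both libraries, and the other 3 summed to less in 4T1-GMP (18.3 and 10.1 RPKM). The part of these cell types in the annexin ratios was not tested.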

How the data were processed

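The authors deposited RPKM, that is, reads scaled by gene length and by library size, as 1 value for each symbol in 1 NTB-GMP and 1 4T1-GMP library. The submitters' processing notes name CASAVA 1.8.2, cutadapt 1.2.1, TopHat2 2.0.13, Picard 1.97, HTSeq 0.6.1, edgeR 3.12.1 and build mm10; the gene lengths are not given in the sources used here.

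Ratios between RPKM were used to recover whole reads (relative tolerance 1e-13) for 14833 of 14833 genes above 0. For some genes the reads are the smallest whole numbers that fit the ratio, and thus minima; for annexins, the smallest factor whose gene length covered the longest GENCODE M21 coding sequence was used. The library sizes behind the RPKM, 10180365.24 and 30016262.80, were not whole numbers, and their ratio of 2.95 differed from that of the recovered reads (2.78). The weighted trimmed mean of log2 RPKM ratios (30% of ratios and 5% of levels trimmed at each end) was 0.0022, so the RPKM were already centered by this measure before any step here. Reads are PCR products without molecular identifiers, so intervals cover counting error only.

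Log2 ratios used a pseudocount of 0.1 for display and 2-fold as the threshold. Intervals are 95% Clopper-Pearson for ratios, 95% Poisson for levels and conditional exact for pairs, computed on reads without the pseudocount. Named were all annexin symbols, S100a10, S100a11, Fpr1 and Fpr2, and genes of each related list past 2-fold, up to 4 in each direction; genes averaging 1 RPKM or more were called expressed. Sri, Pdcd6, Nr3c1, Tsc22d3, Pla2g4a and the marker genes were named after their values were seen. Members and lists were chosen with earlier results of these data known. There were 7 alternatives. The one without Rn45s treats the library sizes as read totals, although they were not plain read totals, so it may not be a meaningful scaling. The read recovery was tested on data simulated from the recovered gene lengths and library sizes, so the test cannot check those values. Python 3.11.15, numpy 2.4.6, pandas 2.3.3, scipy 1.17.1 and matplotlib 3.10.9 were used.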

Additional observations from a re-analysis of the deposited data

How the results depend on the processing

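All 8 annexins kept their direction under the 7 alternatives, with 5 higher and 3 lower in each. Only the alternatives that rescale the libraries could have changed a direction, because a pseudocount cannot turn a ratio. The alternatives that change which genes are counted leave every member value as it was. With those unchanged values included, 47 of 56 values of single members stayed within their counting interval while 9 moved beyond it. Apart from Anxa1 and Anxa3 after quantile normalization, every value that moved came from library sizes that omit Rn45s. That alternative may not be a meaningful scaling. The counting interval lay above 0 for 5 annexins and below 0 for 3 with the median of all genes set to 0, and above 0 for 4, below 0 for 3 and across 0 for 1 with library sizes that omit Rn45s. For these counts too, the shares of all expressed genes were not computed. Anxa6 was the member past 2-fold, and with a pseudocount of 1 the count of annexins at least 2-fold lower was 0. The median log2 ratio of the annexins was 0.14 with library sizes that omit Rn45s, which lowered the log2 ratio by 0.16 for every gene, so that the median of all genes became -0.11. After quantile normalization it was 0.13, against 0.00 for all genes; the cause was not tested. Membrane repair genes past 2-fold numbered 0 with a pseudocount of 1, 0 at a minimum mean RPKM of 5, 0 after quantile normalization and 2 with all genes above 0. Partner and receptor genes past 2-fold numbered 2 at a minimum mean RPKM of 5, where fewer genes are counted. Depth limits Fpr1, Fpr2, S100a6 and Pros1, which had 4 to 11 recovered reads in NTB-GMP. No paired analysis was possible because there was 1 library per group, which also meant that leaving out a replicate could not be tried.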
